A study of Homo sapiens with 4 samples.

Results

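NRF2 sites that were bound in SC mammospheres and were not called in ZMYND8 KO mammospheres were examined one by one, leaving out dense clusters of peaks. A lost site is a summit of SC replicate 1 with a partner summit in SC replicate 2 at most 200 bp away and no summit of either ZMYND8 KO list within 1000 bp. Summits on the mitochondrial genome and on chromosome Y were dropped, as were runs in which 5 neighbouring summits of SC replicate 1 lay within 50 kb. Of the 2030 summits of SC replicate 1, 641 were lost sites. These sites were chosen by the presence or absence of called summits in the 4 lists, so their number and their scores describe them and were not tested.

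MDA-MB-231 is a human breast cancer cell line, grown here as mammospheres in suspension, a culture enriched in breast cancer stem cells. The control mammospheres (SC, a scrambled control, called parental in the genotype labels) and the ZMYND8 KO mammospheres each gave 2 NRF2 ChIP-Seq libraries, with no treatment in either group. The sources used here do not say whether the ZMYND8 KO line is 1 clone or whether the duplicates came from separate cultures. MACS2 was run by the authors library by library, and each peak is listed by its summit, the base with the highest signal, with a score that is the −log10 of the q-value.

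NRF2 is the master transcription factor of the antioxidant response. It is held at low levels by KEAP1, which directs it to the proteasome, and once stabilised it pairs with small MAF proteins and binds antioxidant response elements in the promoters and enhancers of genes for glutathione synthesis, thioredoxin recycling and detoxification. ZMYND8 reads acetylated histone tails and acts as a coregulator of transcription. The comparison of SC with ZMYND8 KO therefore asks where NRF2 still occupies chromatin when ZMYND8 is absent. The paper reported less NRF2 protein and more KEAP1 protein in MDA-MB-231 mammospheres with ZMYND8 KO. It also reported a direct interaction of ZMYND8 with NRF2, and less NRF2 enrichment on antioxidant genes in these ZMYND8 KO mammospheres. The data used here do not measure the amount of NRF2.

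SC gave 2030 summits in replicate 1 and 6816 in replicate 2, and ZMYND8 KO gave 394 and 477. Read counts were not among the data, so the depth is unknown, and a difference in depth and a difference in binding cannot be told apart from these lists. Positions were taken as hg19 coordinates, counted from 1. The genes, repeats, centromeres and DNA sequence at or near the sites were not analysed here.

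In the whole lists, isolated NRF2 sites that recurred in SC were lost from ZMYND8 KO more often than they were kept, an order that turned when the lists were cut to equal length (34 lost and 121 kept). Of the 1720 isolated summits of SC replicate 1, 968 had a partner in SC replicate 2. Of these 968 sites, 641 were lost, which was 66.2% (Wilson 95% interval 63.2% to 69.1%). Another 265 sites (27.4%) were kept, with a ZMYND8 KO summit within 200 bp, and for the remaining 62 (6.40%) the nearest one lay over 200 and up to 1000 bp away. Among the kept sites, 126 were found in both ZMYND8 KO lists, 51 in replicate 1 alone and 88 in replicate 2 alone. Isolated summits of SC replicate 1 with no partner in SC replicate 2 lacked a ZMYND8 KO summit in 622 of 752 cases (82.7%). All intervals treat sites as independent and cover counting error alone.

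Lost sites scored lower in SC than kept sites, with a long overlap. Their scores in SC replicate 1 had a median of 6.31, with extremes of 2.03 and 31.6. The median in SC replicate 2 was 6.28, with extremes of 1.32 and 32.9. Kept sites had medians of 12.9 and 14.8 in the same lists, and reached 126 and 143. In the overlap, 27 of the 641 lost sites scored at or above the median kept site in both SC lists, and 9 of the 265 kept sites at or below the median lost site in both. A score of at least 10 in both SC lists was reached by 57 lost sites (8.89%) and by 147 kept sites (55.5%), and a score of at least 20 by 6 and 63.

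The lost sites filled different parts of the ranking in the SC lists, which differ in length. The median lost site ranked 999 of 2030 in SC replicate 1, at 49.2% of the list, and 1208 of 6816 in SC replicate 2, at 17.7% of the list. A better relative position in SC replicate 2 was held by 539 of the 641 lost sites and by 239 of the 265 kept sites. Among the lost sites, the raw score was higher in SC replicate 2 at 347 and in SC replicate 1 at 294. Spearman's correlation of the scores of the SC lists was 0.398 over the 641 lost sites and 0.731 over the 265 kept sites, given as a description of points that come from the same pair of libraries. Scores came in steps: 395 lost sites (61.6%) in SC replicate 1 carried a score shared by at least 10 summits of that list, the commonest being 4.27, held by 59 lost sites and 0 kept sites. Ranks among weak peaks therefore hold many ties, and a tie was given its best rank.

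**Figure D1:**
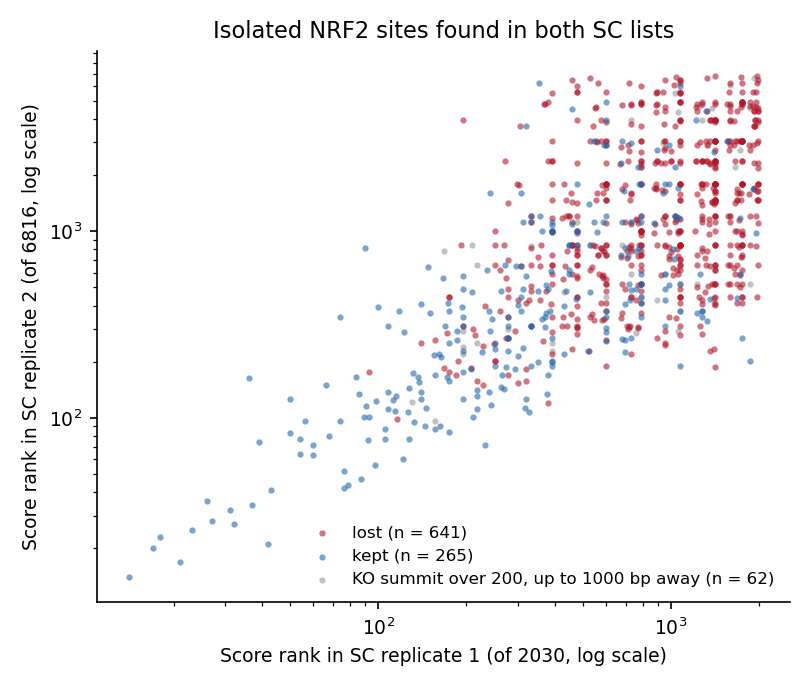
Score rank of each isolated site in SC replicate 1 (x axis, log scale) and SC replicate 2 (y axis, log scale), with rank 1 the highest score, for 641 lost, 265 kept and 62 other sites. Kept sites fill the lower left corner, lost sites begin near rank 93 in SC replicate 1 and rank 99 in SC replicate 2, and the columns of points at weak ranks are tied scores.

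The share of lost sites climbed with falling rank in both SC lists. Among isolated sites ranked 1 to 100 in SC replicate 1, 1 of 40 was lost (2.5%, 0.443% to 12.9%). From there to rank 300 it was 42 of 133 (31.6%, 24.3% to 39.9%), and on to rank 500 it was 92 of 153 (60.1%, 52.2% to 67.5%). Loss then reached 71.2% (65.5% to 76.3%) of 264 sites between ranks 500 and 1000, and 84.1% (80.1% to 87.5%) of the 378 sites beyond rank 1000. Ranked by SC replicate 2, the shares were 2.56%, 32.6%, 54.3%, 75.8% and 77.3% over the same classes, and 83.5% beyond rank 2000. The strongest isolated sites were thus called in ZMYND8 KO almost without exception, and 21 of the 120 sites in the top 300 of both SC lists were lost.

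**Figure D2:**
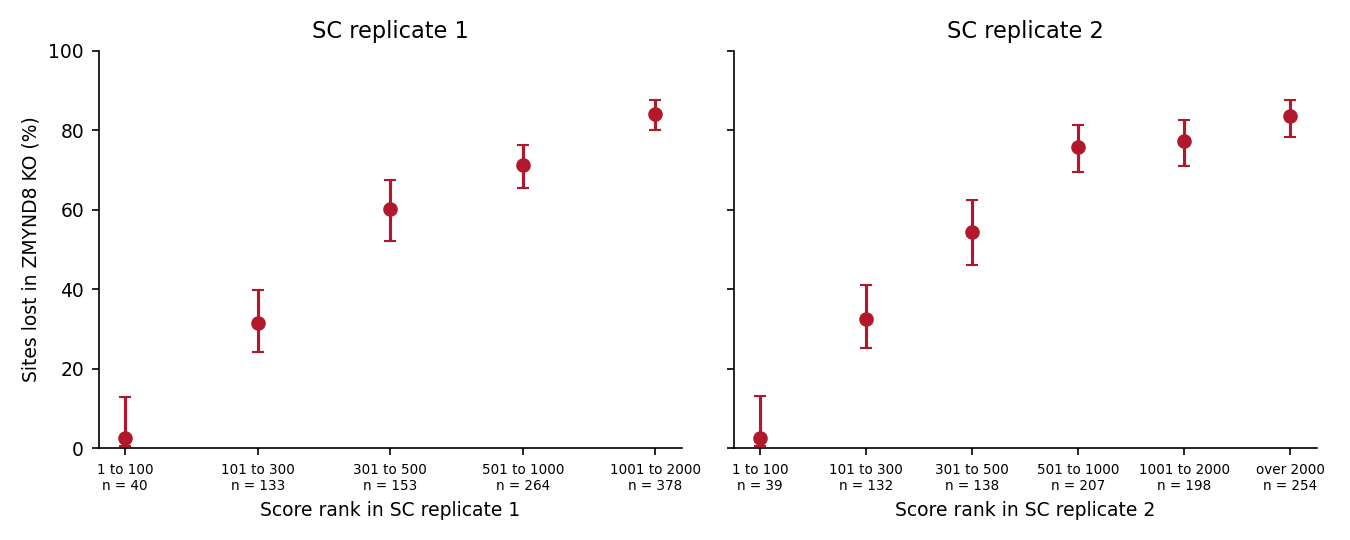
Percentage of isolated SC sites lost in ZMYND8 KO (y axis) by class of score rank in SC replicate 1 (left) and SC replicate 2 (right), with Wilson 95% intervals and the number of sites. The share rises from 2.5% and 2.56% in the top 100 to 84.1% and 83.5% in the weakest class.

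Equal list lengths lowered the share of lost sites to a value near that found with the groups exchanged. When each list was cut to its 394 strongest summits, the length of the shortest, 161 isolated sites recurred in SC, of which 34 were lost (21.1%, 15.5% to 28.1%) and 121 kept. Of these 34, 31 were also lost in the whole lists. The same rule with the groups exchanged found 154 isolated sites recurring in ZMYND8 KO, of which 33 had no SC summit within 1000 bp (21.4%, 15.7% to 28.6%). In whole lists the exchanged rule found 1 of 172 (0.581%), against 641 of 968 (66.2%) from SC. The shares were therefore alike at equal list lengths alone. The exchanged rule used dense runs of ZMYND8 KO replicate 1 in place of those of SC replicate 1.

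Single lists also missed each other within a group. Of the isolated summits among the top 394 of SC replicate 1, 31.7% (26.4% to 37.5%) had no summit of SC replicate 2's top 394 within 1000 bp, against 44.8% (38.9% to 50.8%) for ZMYND8 KO replicate 1 and 46.6% (40.8% to 52.6%) for ZMYND8 KO replicate 2. From SC replicate 2, 34.4% (29.1% to 40.1%) were missed by the other SC list, 48.2% (42.5% to 54.0%) by ZMYND8 KO replicate 1 and 49.6% (43.9% to 55.4%) by ZMYND8 KO replicate 2. Both ZMYND8 KO lists were therefore missing more of the top SC sites than the other SC list was, with intervals that did not overlap. These intervals count the same summits of 1 library in each comparison, and they do not cover the spread between libraries. From ZMYND8 KO the differences were smaller: 34.9% of replicate 1 was missed by replicate 2 and 39.6% and 41.2% by the SC lists, while 40.4% of replicate 2 was missed by replicate 1 and 46% and 47.4% by the SC lists. In this direction the intervals overlapped for both replicates (29.3% to 40.9% against 33.8% to 45.7% and 35.3% to 47.3% for replicate 1, and 34.8% to 46.4% against 40.1% to 51.9% and 41.6% to 53.4% for replicate 2). An exact permutation test over 2 libraries against 2 cannot reach 0.05, and no test over libraries was made.

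**Figure D3:**
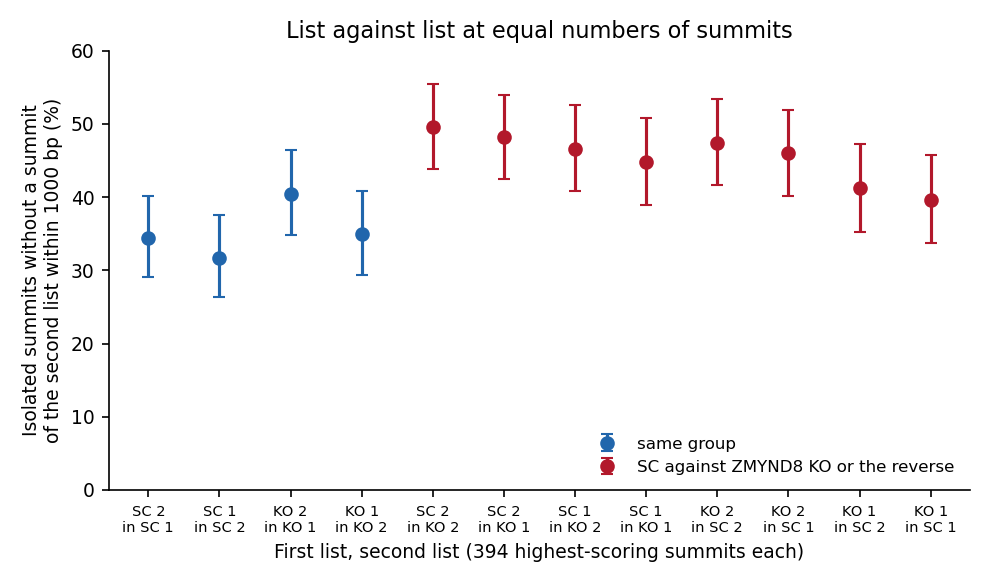
Percentage of isolated summits of a first list with no summit of a second list within 1000 bp (y axis), for the 394 strongest summits per list, with Wilson 95% intervals. Blue points compare lists of the same group and run from 31.7% to 40.4%, and red points compare SC with ZMYND8 KO and run from 39.6% to 49.6%.

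Both SC libraries placed the summits of most of the strongest lost sites close together. The 20 sites with the best mean relative rank lay on 13 chromosomes, held ranks of 93 to 250 in SC replicate 1 and of 99 to 446 in SC replicate 2, and their SC summits were a median of 16.5 bp apart. In 13 of the 20 the SC summits lay within 20 bp. For 11 of them the nearest ZMYND8 KO summit was more than 1 Mb away.

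The leading site lay on chromosome 14 at 81833362, with scores of 28.4 and 32.9 and ranks of 116 and 99 in SC replicates 1 and 2. Its nearest ZMYND8 KO summit was 33.7 kb away, in replicate 1, while the nearest in replicate 2 was 5831.2 kb away. The next lay on chromosome 5 at 107008064, with scores of 31.6 and 22.5, ranks of 93 and 177, and SC summits 5 bp apart. It was the highest-ranking lost site of SC replicate 1, and its nearest ZMYND8 KO summit was 206 kb away.

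Chromosome 10 held the third and the eighth. At 134498392 the SC summits were 1 bp apart, with scores of 24.5 and 18.1, and the nearest ZMYND8 KO summit was 13.6 Mb away, the farthest among these 20 sites. At 70992670 the scores were 20.2 and 20.7, and both ZMYND8 KO lists had their nearest summit 900 kb away. The SC libraries thus gave nearly equal scores at the second of these sites and placed its summits 20 bp apart.

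Sites with near-equal scores in both SC libraries also came from chromosomes 2, 3 and 17. On chromosome 2 at 27505845 the scores were 21.9 and 22 and the summits 2 bp apart. On chromosome 3 at 48507397 they were 21 and 22.5, with the nearest summit of both ZMYND8 KO lists about 4.76 Mb away. On chromosome 17 at 61904979 they were 20.4 and 23.2, with both ZMYND8 KO lists first showing a summit 4.21 Mb away. At each of these sites the SC summits lay within 20 bp of each other, and the nearest ZMYND8 KO summit was over 900 kb away.

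Other leading sites departed from this picture. On chromosome 6 at 58774536, with scores of 17.5 and 18.6, a ZMYND8 KO summit lay 1.74 kb away in replicate 2 and another 3.73 kb away in replicate 1, so the site was lost by a narrow margin of distance. On chromosome 21 at 9827258, with scores of 21.4 and 16.9, the SC summits were 169 bp apart, the widest gap among the 20. At 2 sites the SC libraries differed most in rank: those on chromosome 16 at 14404503 and chromosome 7 at 107851994 both ranked 174 in SC replicate 1 and 446 in SC replicate 2. The second of them had a ZMYND8 KO replicate 1 summit 35.2 kb away, and the nearest in replicate 2 was 1762.1 kb away.

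The remaining leading sites lay on chromosome 12 at 122238880, chromosome 14 at 103018418, chromosome 7 at 129649670 and 134049901, chromosome 6 at 12492501, chromosome 20 at 60877693, chromosome 8 at 124889775, chromosome 17 at 43449089 and chromosome 2 at 231480672. Their scores ran between 15.6 and 25.1 in the SC lists. The chromosome 6 site at 12492501 had a summit of each ZMYND8 KO list 87.8 kb away, and the chromosome 8 site had one of replicate 2 at 247 kb.

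Few lost sites had another lost site close by. Counting sites within 1000 bp of each other once left 603 loci, of which 569 held 1 lost site, 32 held 2 and 2 held 4. The 265 kept sites made 259 such loci. The loci with 4 lost sites lay on chromosome 1 from 148849021 to 148850524, ranked from 478 to 1729 in SC replicate 1, and on chromosome 2 from 236079202 to 236080837, ranked from 788 to 1362. Neighbouring lost sites were a median of 1987.9 kb apart, and kept sites, of which there were fewer, 5394.4 kb. In the long list of SC replicate 2, 416 lost sites (64.9%, 61.1% to 68.5%) had no second summit within 1000 bp, against 145 kept sites (54.7%, 48.7% to 60.6%). Within 10000 bp the share of lost sites with no second SC replicate 2 summit fell to 48.7% (44.8% to 52.5%), against 39.6% (33.9% to 45.6%) of kept sites, and within 50000 bp it was 35.6% (32% to 39.4%) against 28.7% (23.6% to 34.4%). At these wider distances most lost sites therefore had another SC replicate 2 summit nearby.

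Some lost sites lay next to isolated SC sites that were not lost. In the pairs below, a site that was not lost was kept or had its nearest ZMYND8 KO summit up to 1000 bp away. The nearest ZMYND8 KO summit of either list was a median of 1.47 Mb from a lost site, with 396 sites (61.8%) beyond 1 Mb and 63 within 100 kb. Among 59 pairs of neighbouring isolated SC sites over 1000 and up to 50000 bp apart, 23 pairs were both lost, 29 had 1 lost site and 7 had none. Closer pairs are tied by the rule, which looks 1000 bp to each side. Of 84 such pairs, 38 were both lost, 3 had 1 lost site and 43 had none. At the limit itself, the lost sites nearest to a ZMYND8 KO summit stood 1009, 1037 and 1041 bp from it, and the last sites not counted as lost 960, 964 and 988 bp, all of them with scores of 3.08 to 5.56 in SC replicate 1. At the 200 bp limit between SC lists, the widest lost sites measured 198, 199 and 199 bp, and 3 summits at 201 bp were left out.

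Every chromosome tested, 1 to 22 and X, carried lost sites. Chromosomes 1, 2 and 5 held the most, with 51, 49 and 48. Per 10 Mb of the stretch covered by summits, the highest densities were 4.57 on chromosome 21, 4.49 on chromosome 17 and 4.26 on chromosome 22. The lowest were 0.268 on chromosome X and 0.74 on chromosome 4, around a median of 2.49. These densities also depend on how many isolated SC sites of any class a chromosome had. Chromosome X had 6 such sites, of which 4 were lost (66.7%). On chromosomes 17 and 22, 36 of 50 (72%) and 14 of 17 (82.4%) were lost. The share of isolated SC sites that was lost ran from 45.2% on chromosome 4 (14 of 31, 29.2% to 62.2%) to 94.4% on chromosome 21 (17 of 18, 74.2% to 99.0%). The intervals of 3 of the 23 chromosomes left out the overall 66.2%: chromosomes 4 and 21, and chromosome 1 with 54.8% (44.7% to 64.6%). No correction for 23 chromosomes was made, and the shares of the other chromosomes lay within their counting error of the overall value.

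**Figure D4:**
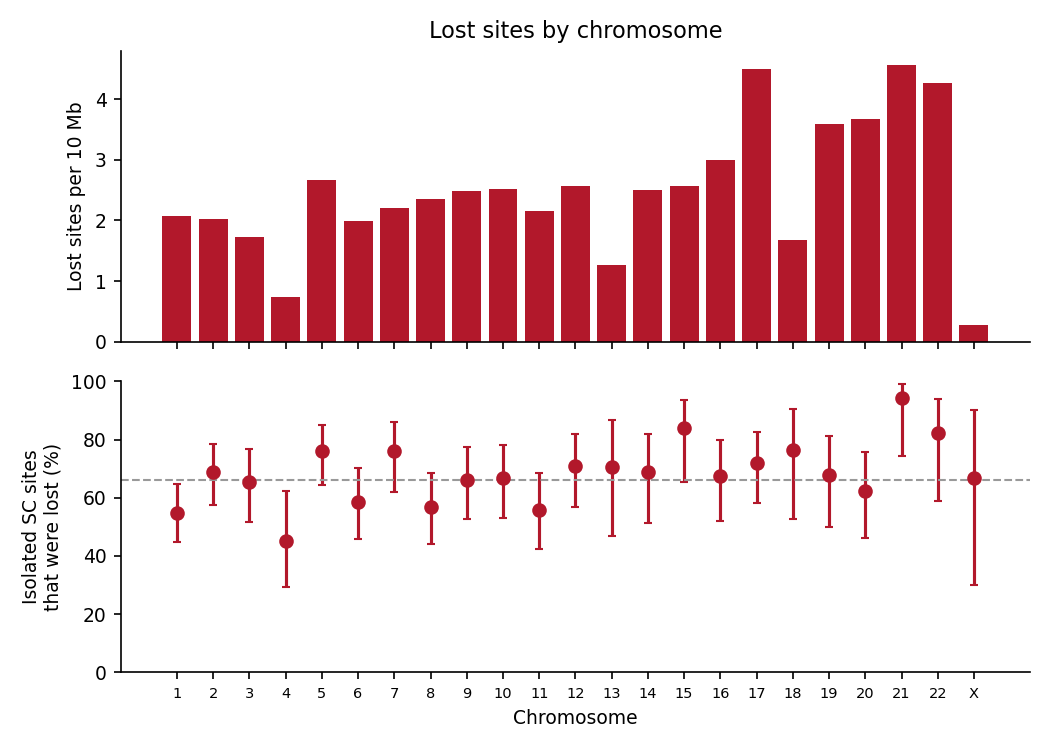
Lost sites per 10 Mb of the stretch covered by summits (upper panel) and percentage of isolated SC sites that were lost (lower panel, Wilson 95% intervals) for chromosomes 1 to 22 and X. The dashed line is the overall 66.2%, which the intervals of chromosomes 1, 4 and 21 leave out.

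The SC summits lay farther apart at lost sites than at kept sites. The distance between the SC summits, which the rule limits to 200 bp but does not otherwise use, had a median of 45 bp (order-statistic 95% interval 41 to 50) over the 641 lost sites and 26 bp (22 to 33) over the 265 kept sites. It was at most 10 bp at 94 lost sites (14.7%) and 74 kept sites (27.9%), and over 100 bp at 133 (20.7%) and 33 (12.5%). Neither direction prevailed: the SC replicate 2 summit lay to the right at 319 lost sites and to the left at 320. The difference was not the same in each class of rank. Within rank classes of SC replicate 1 the medians of lost and kept sites were 31.5 bp (16 to 44) and 19 bp (13 to 31) between ranks 100 and 300, 36.5 bp (30 to 48) and 36 bp (21 to 50) between ranks 300 and 500, and 40 bp (33 to 49) and 32 bp (23 to 48) between ranks 500 and 1000. Beyond rank 1000 the order turned, with 57.5 bp (48 to 65) for lost and 76 bp (26 to 102) for the 29 kept sites. Ranked by SC replicate 2 it turned elsewhere, with 20 bp (13 to 47) for lost and 25 bp (18 to 33) for kept sites between ranks 100 and 300. Lost sites then had the larger medians in the weaker classes, up to 55 bp (48 to 65) against 27.5 bp (16 to 119) for the 20 kept sites beyond rank 2000. The intervals overlapped in each of these classes, so a difference between lost and kept sites of similar rank was not resolved at these numbers.

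**Figure D5:**
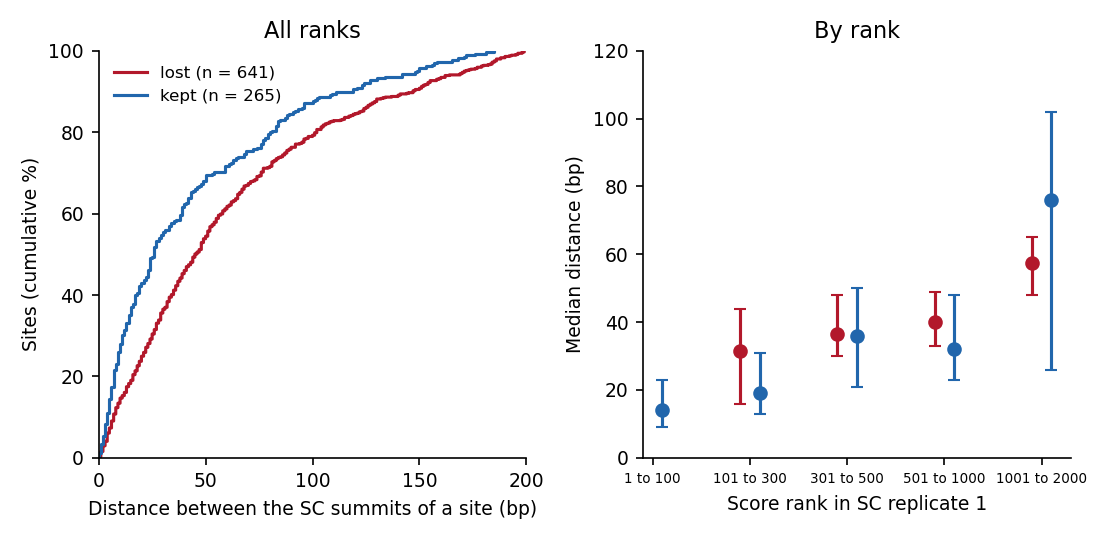
Distance in bp between the SC replicate 1 and SC replicate 2 summits of a site, as cumulative percentages for 641 lost and 265 kept sites (left) and as medians with order-statistic 95% intervals by rank in SC replicate 1 (right, classes with at least 6 sites). The medians over all ranks are 45 and 26 bp, and the intervals of lost and kept sites overlap within each rank class that has both.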

How the data were processed

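NRF2 ChIP-Seq summit lists of 2 SC and 2 ZMYND8 KO libraries of MDA-MB-231 mammospheres were used, assigned by their titles. The submitters' processing notes name FastQC 0.11.2, Bowtie2 2.2.3, Picard 1.127 and MACS2 2.0.10. Control libraries, duplicate handling and depth were not given in the sources used here. The authors deposited 1 summit per peak with a score, the −log10 of the q-value, read so because the lowest value, 1.32, lies just above the −log10 of 0.05. This score depends on depth, so it was ranked within lists.

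The notes name hg19 and hg38. Positions were taken as hg19. As a check, 93 summits, 3 lost sites among them, fall past the end of the last GRCh38 gene on their chromosome. A position past the last gene can still lie on the chromosome, so this count does not settle the build. Promoters, gene regions, motifs and gene names were planned and not run, as no hg19 annotation or genome was used. The rule for naming genes was applied to positions, as the 20 lost sites with the best mean relative rank.

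Shares have Wilson and medians order-statistic 95% intervals. No p-value was computed. Densities use the distance between the outermost summits of a chromosome over the 4 lists. The site rule was tested on simulated data. Members, lists and comparisons were chosen with earlier results of these data known. Scripts ran in Python 3.11.15 with pandas 2.3.3, numpy 2.4.6, matplotlib 3.10.9 and scipy 1.17.1.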

Additional observations from a re-analysis of the deposited data

How the results depend on the processing

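Distances, score minimum, dense runs, starting list and left-out libraries were varied. Equal list lengths were added after seeing the data, as were the alternatives for the overall share other than the replicate block. The number of lost sites, 641, moved by over 1.5 times with a score of at least 5 (294 sites, 52.7% lost, median offset 36 bp) or 10 (57, 26.6%, 31 bp) in both SC lists, and with equal list lengths (34, 21.1%). Without 1 library it ran from 694 to 5168 and the share from 71.7% to 92.2%. The highest values came without SC replicate 1, and without SC replicate 2 there were 1263 lost sites (73.4%), since recurrence then could not be asked. The share, 66.2%, was 72.6% with ZMYND8 KO summits searched within 200 bp, 58.2% with dense runs kept and 69.8% with runs of 3 left out. The offset of 45 bp was 34 bp and 61 bp with SC limits of 100 and 500 bp, by construction. It was not computed without an SC library or at equal lengths.

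Paired by replicate number, as a replicate block, 77.2% and 71.6% were lost, with a mean of 74.4%, since 1 ZMYND8 KO list was searched. A partner summit in the other SC list was still required, so both values drew on both SC libraries. The first is the same as the setting without ZMYND8 KO replicate 2. No source used here ties equal replicate numbers to a common batch, and with 2 pairs this could not be checked. Settings for promoters, AREs and AP-1 elements were not run. Unknown depth limits each count.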
